A study of Petunia x hybrida with 22 samples.

Results

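In the corolla of Petunia × hybrida cultivar Mitchell, 227 genomic regions carried at least 4 times less histone H3 lysine 27 acetylation (H3K27ac) at 7PM than at 7AM in each of 2 replicates. They were chosen from 3698 regions that the study's lists of changed islands (stretches of enriched windows) put lower at 7PM in both replicates, so they are 6.14% of those, and all lists together covered 83562 separate regions. Islands of the 2 replicates that shared at least 1 bp were joined into a region. The counts of 7PM and 7AM reads were summed per replicate, 1 read was added to each, and the ratio of 7AM to 7PM after scaling by library totals had to be 4 or more in both replicates. The H3K27ac values below therefore describe the choice and carry no test.

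The tissue was the corolla, the petal tube and limb of the flower, from plants in a greenhouse with 14 h of light (6AM to 8PM) and 10 h of dark. One group was collected at 7PM, late in the light period, and the other at 7AM, early in it. Genotype, tissue, crosslinking with 1% formaldehyde and greenhouse conditions were the same for both. Chromatin was immunoprecipitated with antibodies to H3K27ac, H3K9ac, H3K4me3 or H3K36me3. There were 2 replicates per mark and time, numbered 1 and 2 except for H3K36me3 (1 and 3).

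Acetylation of histone tails loosens the contact of nucleosomes with DNA, is read by bromodomain proteins and can be written and erased within hours by acetyltransferases and deacetylases. H3K27ac and H3K9ac both mark active promoters, and H3K27ac also marks active enhancers. H3K4me3 is placed around transcription start sites and H3K36me3 along transcribed gene bodies, and both are in general more stable than acetylation. Mitchell petunia has white flowers and releases its benzenoid scent at night, and the corolla is the organ that makes it.

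Sequencing depth was lowest in H3K27ac replicate 2, followed by the 7AM library of H3K27ac replicate 1. The H3K27ac libraries held 14140437 reads at 7PM and 11366924 at 7AM in replicate 1, and 7945368 at 7PM and 6721831 at 7AM in replicate 2. The other marks had 11507185 to 51116862 reads per library. Petal tissue is a mixture of cell layers, and fewer cells with a mark cannot be told apart from less of the mark per cell. No gene annotation or genome sequence was used here, so the regions are given by scaffold and position in the coordinates of the lists, counted from 1.

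The 227 regions were short and strongly depleted in the evening. Their median length was 1800 bp, with a range of 200 to 9600 bp, and 200 of them consisted of 1 island in each replicate. Per kb of listed sequence, the median H3K27ac level was 0.668 CPM (counts per 1000000 reads of the library) at 7PM and 4.07 CPM at 7AM in replicate 1. In replicate 2 it was 0.539 CPM at 7PM and 3.67 CPM at 7AM. The 3471 falling regions outside the choice had 1.14 CPM per kb at 7PM and 3.08 CPM per kb at 7AM in replicate 1, and 0.979 CPM per kb at 7PM and 2.98 CPM per kb at 7AM in replicate 2. Compared with those, the chosen regions were lower in the evening and higher in the morning, a difference that the choice by the ratio of these levels favours.

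The median log2 fold of H3K27ac (7PM over 7AM) was −2.38 in replicate 1 and −2.49 in replicate 2, and the mean of both replicates ranged from −4.63 to −2.01. Most regions lay near the limit: the smaller of the 2 replicate ratios was under 5 in 132 regions and under 6 in 177, and it reached 8 in 13. The ratios of both replicates were within 1.5 times of each other in 173 regions (76.2%), and in 2603 of the 3471 other falling regions. Across the 227 regions the folds of both replicates had a Pearson correlation of 0.31 (Spearman 0.35), within a range that the limit cuts off.

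**Figure D1:**
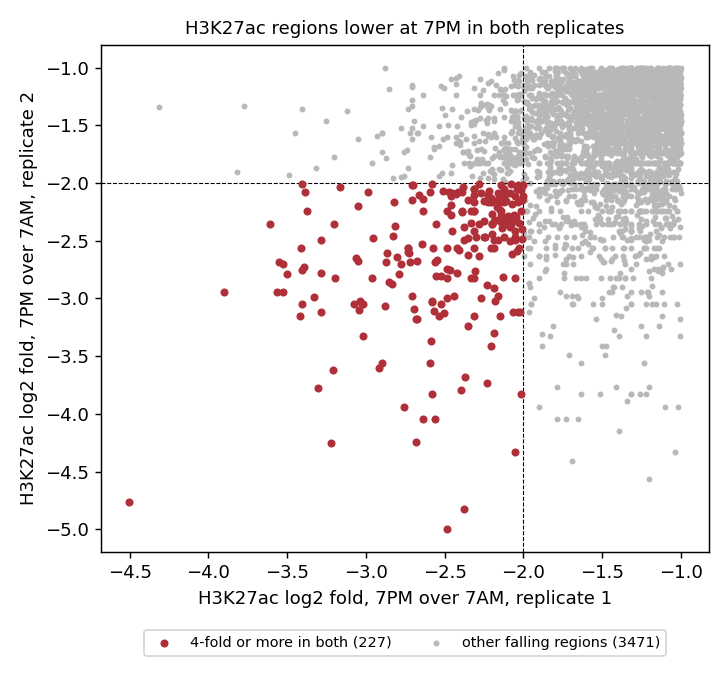
Log2 fold of H3K27ac (7PM over 7AM) in replicate 1 (x axis) and replicate 2 (y axis) for each of the 3698 regions listed lower in both replicates. Red points are the 227 regions at or below −2 in both (dashed lines), grey points the other 3471, and 1 region at the lower left lies apart from the rest.

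Counting precision differed much between members. Reads at 7AM had a median of 71 in replicate 1 (range 10 to 952) and 34 in replicate 2 (range 9 to 464), and 86 regions had at least 50 in both. In 8 regions the 7PM library of replicate 2 had 0 reads. The exact 95% interval of the ratio, which covers counting error only, lay above 2 in both replicates for 171 regions and above 4 in both for 21. These intervals come from the reads that chose the regions and describe precision alone. In the authors' deposited table the FDR of the 236 islands behind these regions was at most 6.9e-06 in replicate 1, and that of the 252 islands in replicate 2 at most 5.0e-05. Those values rest on the same reads, in lists that hold only changed islands, so low FDRs follow from the choice and add no test.

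At the limit, the values were continuous. Just inside lay Peaxi162Scf00170 at 848601 to 850400, with 17 reads at 7PM and 57 at 7AM in replicate 1 and 6 at 7PM and 23 at 7AM in replicate 2 (ratios of 4.01 and 4.05). Peaxi162Scf00154 at 724401 to 733200 (4.01 and 4.33) and Peaxi162Scf01144 at 98001 to 101400 (4.02 and 4.43) followed. Just outside were Peaxi162Scf00064 at 1743401 to 1746200 (3.99 and 6.21), Peaxi162Scf00080 at 54201 to 56400 (3.99 and 4.73) and Peaxi162Scf00477 at 893801 to 897800 (3.99 and 5.40). Of the 3698 falling regions, 254 passed the limit in replicate 1 alone and 522 in replicate 2 alone.

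The deepest loss was on Peaxi162Scf00092 at 1565601 to 1569600. H3K27ac there had 25 reads at 7PM and 473 at 7AM in replicate 1, and 7 reads at 7PM and 183 at 7AM in replicate 2. In CPM this was 1.77 and 0.881 at 7PM, against 41.6 and 27.2 at 7AM, and the mean of the log2 folds was −4.63 ± 0.18 (SD over 2 replicate pairs). Both morning libraries were far above both evening libraries, and the smaller ratio was 22.7, followed by 9.87 in the next region. The same place also had lower H3K9ac and H3K4me3 in the evening, described below.

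In the next strongest region, on Peaxi162Scf00408 at 236001 to 245600, the level was 4.10 and 2.64 CPM at 7PM, against 41.1 and 37.8 CPM at 7AM. On Peaxi162Scf00472 at 629001 to 632400 it was 2.69 and 0.629 CPM at 7PM, against 25.6 and 14.3 CPM at 7AM. On Peaxi162Scf01517 at 103201 to 105400 it was 0.778 and 0.503 CPM at 7PM, against 7.74 and 7.59 CPM at 7AM. In each of these the 2 evening values lay well below the 2 morning values, although the morning levels themselves ranged over 7.59 to 41.1 CPM.

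Small regions also reached this group. Peaxi162Scf00620 at 206801 to 207400 had 4 reads at 7PM and 42 at 7AM in replicate 1, and 1 read at 7PM and 14 at 7AM in replicate 2, where the ratio was 16.5 (exact 95% counting interval 2.52 to 699.7). Peaxi162Scf00951 at 360001 to 361200 had 3 reads at 7PM and 33 at 7AM in replicate 1 (ratio 13.7, interval 4.29 to 69.7), and 2 reads at 7PM and 20 at 7AM in replicate 2 (ratio 11.8, interval 2.87 to 104.3). With so few evening reads the size of these losses is poorly known. The remaining ones of the 10 largest were better covered in replicate 1. Their evening and morning reads in that replicate were 56 and 446 on Peaxi162Scf00439 at 672401 to 680800 and 55 and 370 on Peaxi162Scf00316 at 487001 to 490800. They were 30 and 202 on Peaxi162Scf00010 at 3625001 to 3628600 and 16 and 114 on Peaxi162Scf00048 at 969401 to 971600. Their log2 folds were −3.20 ± 0.12, −3.07 ± 0.041, −3.04 ± 0.016 and −3.06 ± 0.017 in that order (SD, n = 2 replicate pairs). The 2 replicate values thus lay close together. In replicate 2 the Peaxi162Scf00048 region had only 4 reads at 7PM and 34 at 7AM (exact 95% counting interval of the ratio 3.58 to 39.0). The size of its loss there is poorly known.

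**Figure D2:**
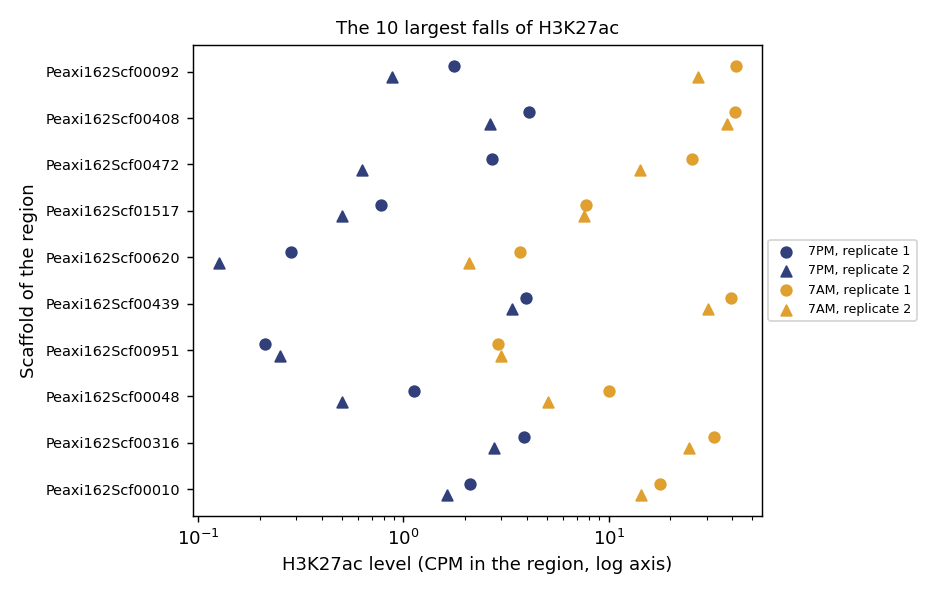
H3K27ac level in CPM (log axis) in the 2 libraries of 7PM (dark) and the 2 of 7AM (orange) for the 10 regions with the highest smaller ratio, one per line; circles are replicate 1 and triangles replicate 2. In all 10 both evening values lie left of both morning values, for example 0.126 against 2.08 CPM in replicate 2 of the Peaxi162Scf00620 region and 4.10 against 41.1 CPM in replicate 1 of the Peaxi162Scf00408 region.

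The 5 regions with the highest morning level had mean log2 folds of −2.20 to −2.68, around the median of the 227, −2.47. On Peaxi162Scf00439 at 894201 to 899600 H3K27ac was 16.9 and 15.4 CPM at 7PM, against 80.6 and 69.0 CPM at 7AM, which gave −2.20 ± 0.063 as log2 fold (SD, n = 2 replicate pairs). On Peaxi162Scf00125 at 1077601 to 1086600 it was 11.8 and 13.6 CPM at 7PM, against 83.8 and 61.3 CPM at 7AM (−2.49 ± 0.46). Both are long, so these are totals over the region and not levels per kb. Peaxi162Scf00114 at 798401 to 808000, with 12.5 and 8.68 CPM at 7PM against 73.7 and 61.3 CPM at 7AM (−2.68 ± 0.18), was both among the 5 highest and among the 5 longest. The others of the longest were the Peaxi162Scf00408, Peaxi162Scf00125 and Peaxi162Scf00154 regions named above and Peaxi162Scf00439 at 932801 to 942400, and all 5 were 8800 to 9600 bp long.

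H3K9ac, the second acetylation mark, was measured in libraries that the choice did not use. Of the 227 regions, 133 (58.6%, exact 95% binomial interval 51.9 to 65.1) overlapped a region where H3K9ac was listed lower at 7PM in both of its replicates. Over all 3698 falling H3K27ac regions the share was 17.4%, and over the 3471 outside the choice 14.8% (512 regions). No region of the 227 overlapped an island with higher H3K9ac at 7PM in either replicate, which leaves an exact 95% upper limit of 1.61%, where the background was 0.27% in replicate 1, 0.973% in replicate 2 and 0.027% in both. The 133 regions met 142 H3K9ac regions, which are 10.5% of the 1352 H3K9ac regions listed lower in both replicates. The difference in share was not tested, and the intervals take regions as independent draws.

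The H3K9ac replicates contributed unequally. In replicate 1, 201 of the 227 regions (88.5%) were listed lower, against a background of 73.5%, and in replicate 2 it was 135 (59.5%), against 19.2%. Islands of both lists met 132 regions directly (1 more was met only by the joined H3K9ac region), replicate 1 alone in 69, replicate 2 alone in 3 and neither in 23. The regions found in neither list were shorter (median 1000 bp, against 2600 bp for those in both) and had fewer H3K27ac reads at 7AM (medians of 19 and 14 in the 2 replicates, against 126.5 and 64.5). Their H3K27ac log2 fold had a median of −2.39, against −2.58. The part of coverage in whether H3K9ac was listed was not tested.

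The share with lower H3K9ac was higher where the H3K27ac loss was larger, over all falling regions. It was 9.23% of the 2211 regions whose smaller ratio was under 2.5, 18.1% of the 791 from 2.5 to 3, 35.2% of the 469 from 3 to 4, 53.1% of the 177 from 4 to 6 and 78.0% of the 50 at 6 or more. Median reads at 7AM in these classes were 42.5, 44.5, 47, 47.5 and 64. At similar morning coverage the share was also higher among the 227 regions. With a mean of under 30 H3K27ac reads at 7AM it was 23.4% (15 of 64), against 6.07% of falling regions outside the choice. With 30 to 60 reads it was 52.6% (30 of 57) against 14.0%, with 60 to 120 reads 71.2% (37 of 52) against 149 of 746, and with 120 or more 94.4% (51 of 54) against 26.4%. Both marks may come from the same chromatin where they carry the same replicate number, which the labels do not say; its part was not tested.

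**Figure D3:**
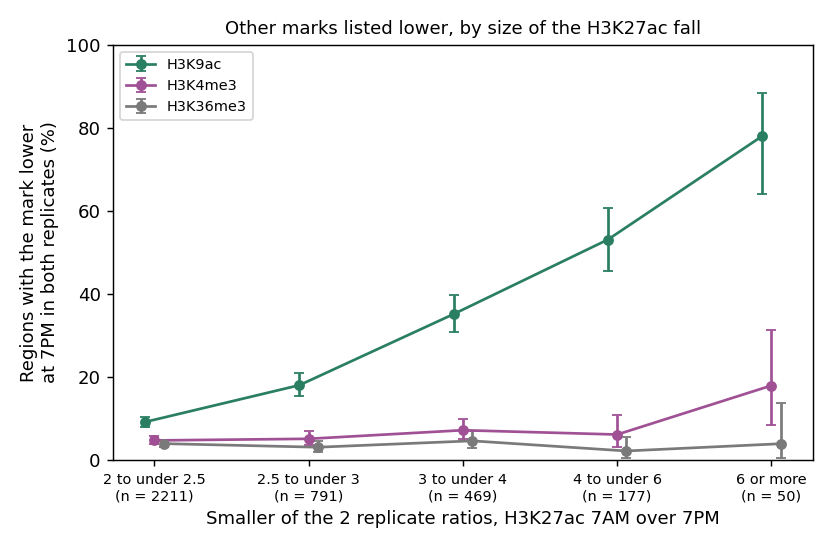
Percent of falling H3K27ac regions that overlap a region listed lower at 7PM in both replicates of H3K9ac (green), H3K4me3 (purple) or H3K36me3 (grey), by the smaller of the 2 replicate ratios of H3K27ac (x axis, 7AM over 7PM); bars are exact 95% binomial intervals. H3K9ac lies between 9.23% and 78.0%, higher in each class than in the one before, H3K4me3 between 4.79% and 18%, and H3K36me3 between 2.26% and 4.69%.

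The H3K9ac loss at these places was of similar size in one replicate and smaller in the other. Over the 142 H3K9ac regions the median log2 fold (7PM over 7AM) was −2.02, with −2.52 in replicate 1 and −1.53 in replicate 2, against −1.66 over the H3K9ac regions met by falling H3K27ac regions outside the choice and −1.58 over all 1352. Median reads were 20 at 7PM and 109.5 at 7AM in replicate 1, and 24 at 7PM and 59.5 at 7AM in replicate 2. Pairing each of the 133 regions with the overlapping H3K9ac region with most reads, the H3K9ac loss was smaller than the H3K27ac loss in 66 in replicate 1 and in 129 in replicate 2. Since H3K27ac was chosen for a large loss and H3K9ac was not, the difference between marks has no test. Across the 133 regions the mean folds of both marks had a Pearson correlation of 0.51 (Spearman 0.41). Of the 142 H3K9ac regions, 24 were at least 4-fold lower in both replicates. The same held for 13 of the 511 met by falling H3K27ac regions outside the choice and for 58 of all 1352.

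**Figure D4:**
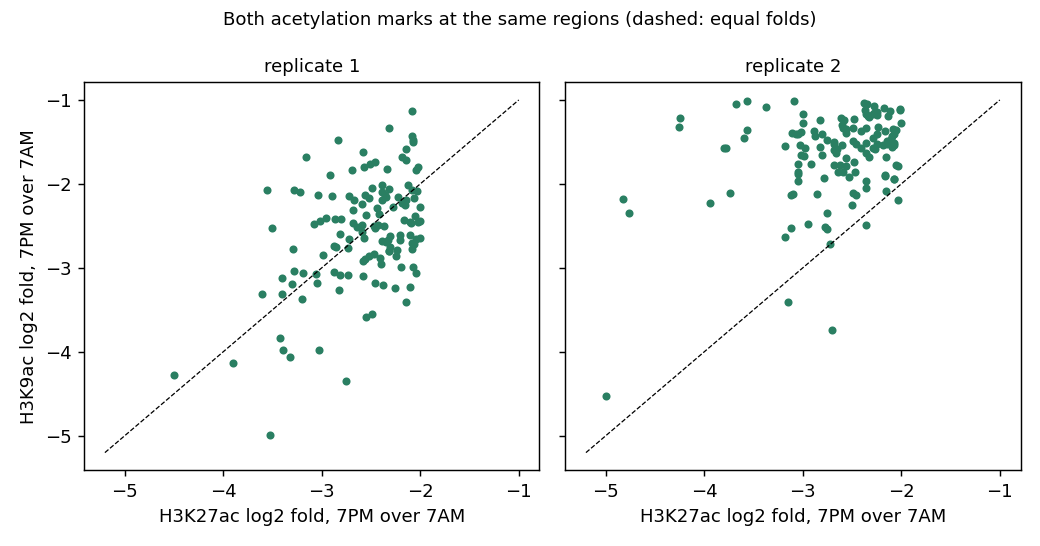
Log2 fold of H3K9ac (y axis) against that of H3K27ac (x axis), both 7PM over 7AM, for the 133 regions where both marks were listed lower in both replicates, with replicate 1 left and replicate 2 right. Points above the dashed line of equal folds lost less H3K9ac than H3K27ac, which holds for 66 points in replicate 1 and 129 in replicate 2.

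Across all 2424 H3K9ac regions listed in both replicates, edgeR's quasi-likelihood test, blocked by replicate number, called none lower (0%) at a Benjamini-Hochberg adjusted p of 0.05. The 133 regions accordingly had 0 calls, with adjusted p-values of 0.105 to 0.14. At an unadjusted p under 0.05 the same test gave 102 of the 133 as lower and 0 as higher. Over the whole table it gave 851 lower (35.1%) and 283 higher, and 1352 of the 2424 were listed lower in both replicates. The 133 regions met only regions listed lower, so the direction of their calls follows from the listing. DESeq2 with the same block called 102 of the 120 it could adjust lower. Over all 2424, including those it could not adjust, it called 356 lower (14.7%) and 140 higher. When H3K9ac regions needed 50 or more reads in 1 library of every pair, edgeR called 84 of 85 members lower. Over that table of 598 regions, listed lower or higher, it called 316 lower (52.8%) and 155 higher. The H3K9ac losses below are therefore given as values.

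By position both marks nearly coincided. H3K9ac regions had a median length of 2800 bp, against 2600 bp for the 133 H3K27ac regions, and covered a median of 94.1% of each. Their centres were a median of 200 bp apart and within 500 bp in 95 of 133, and 14 pairs had identical borders. Neither mark was regularly the wider one: H3K9ac was longer in 65, shorter in 50 and of the same length in 18.

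The largest H3K9ac losses were at small regions. On Peaxi162Scf00439 at 807001 to 807200, a single window, H3K9ac had 0 reads at 7PM and 27 at 7AM in replicate 1, at least 10.2-fold lower in the evening when 3 reads per library are taken as the floor. In replicate 2 it had 1 read at 7PM and 21 at 7AM, a ratio of 25.5 (exact 95% counting interval 4.09 to 1053). H3K27ac at that window had 3 reads at 7PM and 36 at 7AM in replicate 1 and 1 at 7PM and 10 at 7AM in replicate 2. Both marks thus had at most 3 evening reads there in each of the 4 libraries.

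On Peaxi162Scf01096 at 332201 to 332800 H3K27ac had 9 reads at 7PM and 44 at 7AM in replicate 1, and 0 at 7PM and 26 at 7AM in replicate 2, at least 10.2-fold lower. H3K9ac from 332001 to 332800 had 2 reads at 7PM and 30 at 7AM in replicate 1 (ratio 17.0, interval 4.31 to 146.7), and 0 at 7PM and 18 at 7AM in replicate 2, at least 7.27-fold lower. Evening reads were at or under 3 in each of these libraries but the H3K27ac one of replicate 1, where the ratio was 5.6 (interval 2.93 to 14.2). The Peaxi162Scf00620 region had an H3K9ac log2 fold of −3.62 ± 0.30 and the one on Peaxi162Scf00774 at 325601 to 326400 one of −3.34 ± 0.89 (SD, n = 2 replicate pairs).

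At the deepest H3K27ac loss, on Peaxi162Scf00092, H3K9ac had 23 reads at 7PM and 409 at 7AM in replicate 1, but 52 at 7PM and 221 at 7AM in replicate 2, which gave −3.31 ± 1.36 as log2 fold (SD, n = 2 replicate pairs). The evening values were below the morning values in both replicates, and the sizes differed. Of the 10 largest H3K27ac losses only the Peaxi162Scf01517 region lacked an H3K9ac region lower in both replicates, and H3K9ac was listed lower there in replicate 1.

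H3K4me3 was rarely listed at these regions. It fell at 20 of the 227 (8.81%, exact 95% binomial interval 5.46 to 13.3), against 5.44% of all falling H3K27ac regions. By the smaller H3K27ac ratio the share was 4.79% under 2.5, 5.18% from 2.5 to 3, 7.25% from 3 to 4, 6.21% from 4 to 6 and 18% (9 of 50, exact 95% interval 8.58 to 31.4) at 6 or more. By mean H3K27ac reads at 7AM it was 6.25% of the 227 regions' class under 30 reads, against 0.368% of falling regions outside the choice, and 10.5% against 2.48% with 30 to 60 reads. With more reads the share was not higher among the 227, at 7.69% against 7.64% with 60 to 120 reads and 11.1% against 16.9% with 120 or more. These differences in share were not tested. All 20 passed edgeR's quasi-likelihood test with Benjamini-Hochberg adjustment over the 1866 H3K4me3 regions (adjusted p of 0.0026 to 0.0398), where 88.7% were called lower, so the calls repeat the listing. None of the 20 passed without the replicate block (adjusted p of 0.139 to 0.183) or after TMM scaling. Few passed over all 1866 regions either, with 16 called lower without the block and 18 after TMM scaling. DESeq2 called all 20 members (86.7% overall), and with at least 50 reads edgeR called 16 of 16 (96.2% overall). They are 1.21% of the 1657 H3K4me3 regions lower in both replicates, and 17 of them also had lower H3K9ac.

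At these 20 regions H3K4me3 had a median log2 fold of −1.41 and a range of −2.30 to −1.07, against −1.32 over all H3K4me3 regions lower in both replicates. On Peaxi162Scf00092 H3K4me3 from 1561401 to 1568400 had 606 reads at 7PM and 1118 at 7AM in replicate 1, and 246 at 7PM and 613 at 7AM in replicate 2 (−1.32 ± 0.19, SD, n = 2 replicate pairs, edgeR quasi-likelihood test, adjusted p = 0.0026). On Peaxi162Scf00074, H3K27ac, H3K9ac and H3K4me3 had the same borders, 618201 to 620600. H3K4me3 had 282 reads at 7PM and 596 at 7AM in replicate 1 and 99 at 7PM and 325 at 7AM in replicate 2 (−1.62 ± 0.051), H3K9ac had a log2 fold of −2.64 ± 0.95 and H3K27ac one of −2.98 ± 0.89.

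The largest H3K4me3 fold, −2.30 ± 1.70 on Peaxi162Scf00740 at 131601 to 132400, rested on replicate 2, with 2 reads at 7PM and 36 at 7AM (ratio 16.5, exact 95% counting interval 4.25 to 141.5), beside 54 at 7PM and 78 at 7AM in replicate 1. Both replicates were lower in the evening, with sizes far apart. Next came the regions on Peaxi162Scf00011 at 2832401 to 2833200 (−1.74 ± 0.53), Peaxi162Scf00451 at 395001 to 398000 (−1.68 ± 0.59) and Peaxi162Scf00332 at 239801 to 241600 (−1.64 ± 0.17). In single replicates, H3K4me3 was listed lower at 29 regions in replicate 1 (12.8%, background 10.7%) and at 39 in replicate 2 (17.2%, background 14.1%). It was listed higher at 0 in replicate 1 (background 0.0541%) and at 1 in replicate 2 (background 0.297%).

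H3K36me3 fell at 6 of the 227 regions (2.64%, exact 95% binomial interval 0.976 to 5.66), against 3.84% of all falling H3K27ac regions. All 6 passed edgeR's quasi-likelihood test with Benjamini-Hochberg adjustment over 2567 regions (adjusted p at most 6.5e-10), where 94.2% were called lower. They are 0.248% of the 2418 H3K36me3 regions lower in both replicates, and 5 of them passed without the block, but none after TMM or median-of-ratios scaling. Over all 2567 regions, 2378 were called lower without the block, 81 after TMM and 57 after median-of-ratios scaling. The median log2 fold of the 6 was −1.35, beside −1.29 over all H3K36me3 regions lower in both replicates. The largest was on Peaxi162Scf00516 at 360001 to 362600, with 23 reads at 7PM and 99 at 7AM in replicate 1 and 25 at 7PM and 108 at 7AM in replicate 3 (−1.84 ± 0.086, SD, n = 2 replicate pairs). Both pairs of libraries gave nearly the same size there. In single replicates, H3K36me3 was listed lower at 9 regions in replicate 1 (3.96%, background 5.6%) and at 27 in replicate 3 (11.9%, background 12.2%), and higher at 0 in either (background 0.108% in replicate 1 and 0.108% in replicate 3).

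All 4 marks were lower together in both replicates at 4 regions. On Peaxi162Scf00316, H3K27ac at 487001 to 490800 had 3.89 and 2.77 CPM at 7PM, against 32.6 and 24.7 CPM at 7AM. H3K9ac had a log2 fold of −2.65 ± 0.75, H3K4me3 one of −1.56 ± 0.067 and H3K36me3 one of −1.13 ± 0.17 (SD, n = 2 replicate pairs each). On Peaxi162Scf00011 at 2831601 to 2834400 the folds were −3.12 ± 0.62 for H3K27ac, −1.92 ± 0.21 for H3K9ac, −1.74 ± 0.53 for H3K4me3 and −1.53 ± 0.64 for H3K36me3. The remaining ones were on Peaxi162Scf00332 at 239601 to 241800 and Peaxi162Scf00323 at 491601 to 494000. In each of the 4, H3K27ac had the largest mean loss of the marks, as the choice favours, and H3K36me3 the smallest. Another region, on Peaxi162Scf00047 at 1049601 to 1050200, had lower H3K4me3 (−1.28 ± 0.020) and H3K36me3 (−1.48 ± 0.27) but no H3K9ac region listed lower in both replicates.

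Counting the other marks that were lower in both of their replicates, 115 of the 227 regions (50.7%) had H3K9ac alone and 91 (40.1%) had none. Both acetylation marks with H3K4me3 made up 13, and every other combination fewer than 5. Of the 3471 falling regions outside the choice, 12.8% had H3K9ac alone and 79.9% none. No mark was listed higher at 7PM in both replicates at any of the 227. Single lists gave 2 exceptions. H3K27ac itself was listed higher in replicate 1 in the last window of the Peaxi162Scf00011 region, 2834201 to 2834400, with 13 reads at 7PM and 2 at 7AM, where the rest of the region had 15 at 7PM and 150 at 7AM. H3K4me3 was listed higher in replicate 2 on Peaxi162Scf00439 at 876001 to 876800, with 162 reads at 7PM and 76 at 7AM, across the end of a region with 34 and 39 H3K27ac reads at 7PM, against 251 and 138 at 7AM. Both were picked out after their values were seen.

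The 227 regions were spread over 168 scaffolds, with 1 region on each of 128 scaffolds, 2 on 30, 3 on 7 and 4 or more on 3. Another of the 227 lay within 50 kb of 38 regions (16.7%) and within 2 kb of 12 (5.29%), while scaffold ends limit what can be seen. Of the 3471 falling regions outside the choice, 6.83% had one of the 227 within 50 kb and 1.58% within 2 kb. Another falling H3K27ac region of any size lay within 10 kb of 94 of the 227 (41.4%), against 23.8% of the regions outside the choice. A region with higher H3K27ac in both replicates lay within 10 kb of 0 of the 227 and of 19 of the 3471 (0.547%), and within 50 kb of 10 of the 227 (4.41%) and of 3.54% of the 3471.

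One scaffold stood out by number. Peaxi162Scf00439 held 9 of the 227 regions, followed by Peaxi162Scf00047 with 5 and Peaxi162Scf00007 with 4. The 9 lay within 270 kb, from 672401 to 942400, at gaps of 0.6 to 83.6 kb, and covered 14% of that stretch. In all, 16 falling H3K27ac regions lay in it. Islands with lower H3K27ac numbered 19 in replicate 1 and 20 in replicate 2 and none was higher, and H3K9ac had 23 lower and 2 higher islands in replicate 1 and 16 lower and 0 higher in replicate 2. The methylation marks had few islands, with 3 lower and 2 higher for H3K4me3 in replicate 1, 1 lower and 3 higher in replicate 2, and 2 higher for H3K36me3 in replicate 1. Over the whole lists, lower islands were 79.2% in replicate 1 and 45.4% in replicate 2 of H3K9ac, 61.1% and 49.7% of H3K4me3, and 47.9% in replicate 1 of H3K36me3. The scaffold was picked for its number of H3K27ac regions, so the direction of that mark there follows from the choice.

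Within this stretch the regions differed in size and level. The first, at 672401 to 680800, had 3.96 and 3.40 CPM of H3K27ac at 7PM, against 39.2 and 30.5 CPM at 7AM, and H3K9ac there was lower, with −2.65 ± 0.17 as log2 fold (SD, n = 2 replicate pairs). The one at 718001 to 721800 had 4.24 and 3.27 CPM at 7PM, against 24.7 and 23.7 CPM at 7AM, and the one at 932801 to 942400 had 8.91 and 7.68 CPM at 7PM, against 56.0 and 44.9 CPM at 7AM. In these 3 the SD of the H3K27ac log2 fold over the replicates was at most 0.20.

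At 844401 to 850200 there were 7.07 and 10.4 CPM at 7PM, against 56.4 and 44.5 CPM at 7AM, and at 873401 to 876400 there were 2.40 and 4.91 CPM at 7PM, against 22.1 and 20.5 CPM at 7AM. The log2 folds of these 2 regions, −2.53 ± 0.64 and −2.60 ± 0.80, were larger in size in replicate 1 than in replicate 2. Smaller neighbours were at 805401 to 806400, with 6 and 3 reads at 7PM against 83 and 25 at 7AM, at 807001 to 807200, and at 817401 to 818000, with 5 and 2 reads at 7PM against 26 and 14 at 7AM. The last of these was the only one of the 9 with no H3K9ac region lower in both replicates. Without the 9 regions, the share with lower H3K9ac in both replicates was 57.3% of 218, and with 1 region per scaffold 59.5% of 168.

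**Figure D5:**
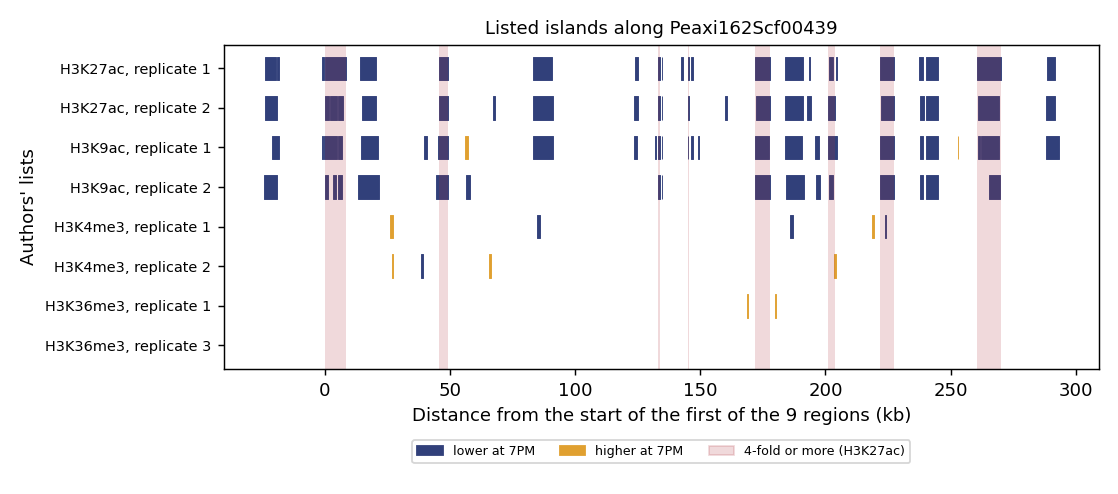
Islands of the authors' lists along Peaxi162Scf00439, by mark and replicate (rows) and distance in kb from the start of the first of the 9 regions (x axis); dark islands are lower and orange ones higher at 7PM, and red shading marks the 9 regions. Rows of H3K27ac and H3K9ac hold separate dark islands spread over the 270 kb, with gaps between them. Examples of gaps are 49.4 to 83 kb in H3K27ac replicate 1 and 58.2 to 133.2 kb in H3K9ac replicate 2. H3K9ac in replicate 1 also has 2 orange islands, and H3K36me3 in replicate 3 has no island.

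Falls of the methylation marks were also counted in the surroundings. A region with lower H3K4me3 in both replicates lay within 10 kb of 48 of the 227 (21.1%), against 11.7% of the regions outside the choice. One with lower H3K36me3 lay within 10 kb of 34 (15.0%), against 12.8%. Overlaps count here as a distance of 0. That distance held for 20 of the 227 for H3K4me3 and 6 for H3K36me3, against 5.21% and 3.98% of the regions outside the choice. Where the scaffold held one, the nearest was a median of 64.1 kb away for H3K4me3 and 74.2 kb for H3K36me3, against 108 kb and 94.4 kb for regions outside the choice. No test of these shares was made.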

How the data were processed

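ChIP-seq libraries of 4 histone marks at 7PM and 7AM were analysed from 16 deposited lists of changed islands, and groups and replicate numbers come from the labels. No use was made of the 6 input samples. Tools named in the submitters' processing notes are cutadapt, Bowtie2 and SICER 1.1. For their settings, and for the build, the answer is "not given in the sources used here". Per the layout of the deposited lists, the authors give for each island the read count of both libraries, CPM (counts per 1000000 reads of the library), the fold (a ratio) and a p-value and FDR. Columns have no names, so the times follow from the direction in each list's label. Only changed islands are listed, so an unlisted mark is not an unchanged one. Island lengths are multiples of 200 bp.

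Library totals were taken as count over CPM. Islands sharing 1 bp or more were joined, and counts were summed per region and replicate. Log2 folds (7PM over 7AM) use 1 added read. H3K9ac, H3K4me3 and H3K36me3 regions listed in both replicates, without those of mixed direction, were tested per mark with edgeR 4.0.16 (R 4.3.3), quasi-likelihood, replicate block, library totals as library sizes, adjusted p under 0.05. The block follows the authors' comparison within replicate numbers. DESeq2 1.42.0 was an alternative. The merging and the edgeR test were tested on simulated data. Binomial intervals are exact (95%), cover counting error only, and reads are not tagged as single molecules. Nothing says whether replicates are separate plants, so p-values measure the spread between these samples. With 2 samples a group, an exact permutation test that ignores the replicate pairs cannot go below 0.3333. One that swaps times within pairs has fewer arrangements still. The members and lists were chosen with earlier results of these data known. Named regions are the 10 largest smaller ratios, the 5 highest morning levels, the 5 longest, the 5 largest losses of each other mark, the limit's neighbours and the scaffold with most regions.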

Additional observations from a re-analysis of the deposited data

How the results depend on the processing

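The number of regions, 227, depends on the settings. It was 100 with 5 reads added to each count, 86 with at least 50 reads at 7AM in both replicates, 696 at a minimum ratio of 3, 50 at 6, and 481 to 749 when the ratio was required in a single replicate. With TMM scaling, which centres the mostly falling regions near no change and shifts every H3K27ac log2 fold upwards by 1.39 in replicate 1 and 1.46 in replicate 2, it was 1, the Peaxi162Scf00092 region. With 50% reciprocal overlap it was 189 and with 0.5 added reads 250. Regions meeting lower H3K9ac numbered 78 with islands of at least 50 reads and 135 to 201 in single replicates, against 133. Those meeting lower H3K4me3 were 29 to 39 in single replicates, and those meeting lower H3K36me3 9 to 27. Members with a called H3K9ac fall, 0 in edgeR, were 34 under TMM, 17 under median-of-ratios scaling, 102 with DESeq2 and 84 with the 50-read filter. Over all 2424 H3K9ac regions, TMM called 54 lower and 345 higher, and median-of-ratios scaling 27 lower and 359 higher. For H3K4me3 the members called were 0 under TMM, 0 under median-of-ratios scaling and 0 without the replicate block, in place of 20. Over all 1866 H3K4me3 regions these settings called 18, 15 and 16 lower, in that order. For H3K36me3 the members called were 0 under TMM and 0 under median-of-ratios scaling, in place of 6. Over all 2567 H3K36me3 regions these settings called 81 and 57 lower. The median H3K36me3 log2 fold was −1.19 to −1.48 in single replicates. Without the replicate block H3K9ac kept 0 calls and H3K36me3 had 5; the block cannot be checked by the numbers alone, since both libraries of a pair share island borders (correlation of same-numbered deviations 0.48 to 0.85 over the marks). Leaving out a replicate leaves no residual degrees of freedom for edgeR, so no test was run. In a comparison added after the data were seen, 90.7% had lower H3K9ac among the 86 members with at least 50 reads at 7AM in both replicates. The share under the same filter was not computed for falling regions outside the choice, so the 90.7% has no background beside it. Depth was lowest in replicate 2 of H3K27ac, where 61 regions had under 20 reads at 7AM.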
